A study of Drosophila melanogaster with 10 samples.

Results

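Female larvae labelled AGO2 51B were compared with female larvae labelled AGO2 V966M, gene by gene, at the level of messenger RNA. The comparison set 4 of the 10 libraries of the study against each other, replicates 3 and 4 of each strain, within a fit of all 10. It returned 16 genes among 13551 tested (0.118%) at an adjusted p under 0.1, the threshold applied throughout. Of these, 6 (0.0443%) were higher in the larvae labelled 51B and 10 (0.0738%) were lower. The higher genes included the cytochrome P450 gene Cyp4p2, the EcKL gene CG11893 and the hairpin RNA locus hpRNA:CR33940, and the lower ones included the chaperone gene Hsc70-2, the gut protease gene Jon74E, the male germline gene tut and the sperm gene Mst87F. No gene family or tissue marker list examined held more than 2 of the 16 genes, the cytochrome P450 genes holding 2 that changed in opposite directions.

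Whole female Drosophila melanogaster in the third instar were profiled by sequencing of polyadenylated RNA, with 2 biological replicates in each of 5 strains. 51B is a null allele of AGO2, and V966M is a substitution in AGO2 that impairs its catalytic (slicing) activity. The 5 labels are 51B and V966M without a second allele named, 51B/+ and V966M/+ (the same alleles over a wild-type chromosome), and w, a white mutant strain that served as the control. The study asked which effects of losing AGO2 protein differ from those of losing its catalytic activity, and the comparison of the strains labelled 51B and V966M bears on that question as far as their labels hold. Each allele came in its own strain, so an effect of the allele and any other difference between the strains cannot be told apart. The number of larvae in a library is not given in the sources used here.

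AGO2 is the Argonaute protein that binds small interfering RNAs (siRNAs) and cuts RNAs that match them. In flies these siRNAs are made by Dicer-2 from viral double-stranded RNA, from transposons, from overlapping transcripts and from long hairpin RNAs encoded in the genome. AGO2 has also been studied in the nucleus, where it associates with chromatin and transcription.

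The level of AGO2 itself went against the labels of the 51B strains. AGO2 (FBgn0087035, 3L:15554113-15561042, dm6) stood at 105 and 99.7 counts scaled to library size (CPM) in the libraries labelled 51B, at 236 and 163 in those labelled V966M, and at 229 and 152 in w. In the libraries labelled 51B/+ it stood at 3.85 and 2.84 CPM. The near absence of AGO2 mRNA was thus found under the heterozygous label, and the libraries labelled 51B held a level between that and w. The difference between the libraries labelled 51B and V966M was -0.96 on the log2 scale (SE 0.27, edgeR adjusted p = 0.646), with no overlap between the strains. Its exons share 317 bp with CG7739 on the other strand. The titles of the samples also repeat the allele name in the libraries labelled as heterozygous and give it once in those labelled 51B or V966M. The labels are followed here as given, and below, 51B and V966M stand for the libraries labelled 51B and labelled V966M, not for a verified genotype.

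The libraries held 22337432 to 60886803 counts assigned to genes. The compared libraries held 38930502 and 22337432 counts for 51B and 60886803 and 25005958 for V966M, so that 3 counts, the floor used here, corresponded to at most 0.149 CPM. Counts from the mitochondrial genome made up 16.5% and 11.6% of the 51B libraries and 11.6% and 7.04% of the V966M libraries. After TMM scaling, which itself centres the bulk of genes near 0, the median log2 fold change over all genes tested was -0.03, and 46.1% of the genes lay above 0.

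The 16 genes spanned absolute log2 fold changes of 1.29 to 4.99, and 11 of them averaged at least 5 CPM over the 4 libraries. For all 16 the 51B and V966M libraries did not overlap, as was also true, with 51B higher, of 15.5% of all genes tested and, with 51B lower, of 18.4%. At an unadjusted p under 0.05, 747 genes (5.51%) passed. The plot of fold change against level shows the 16 genes away from the zero line over a range of levels, with other genes as far from zero that did not pass.

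**Figure D1:**
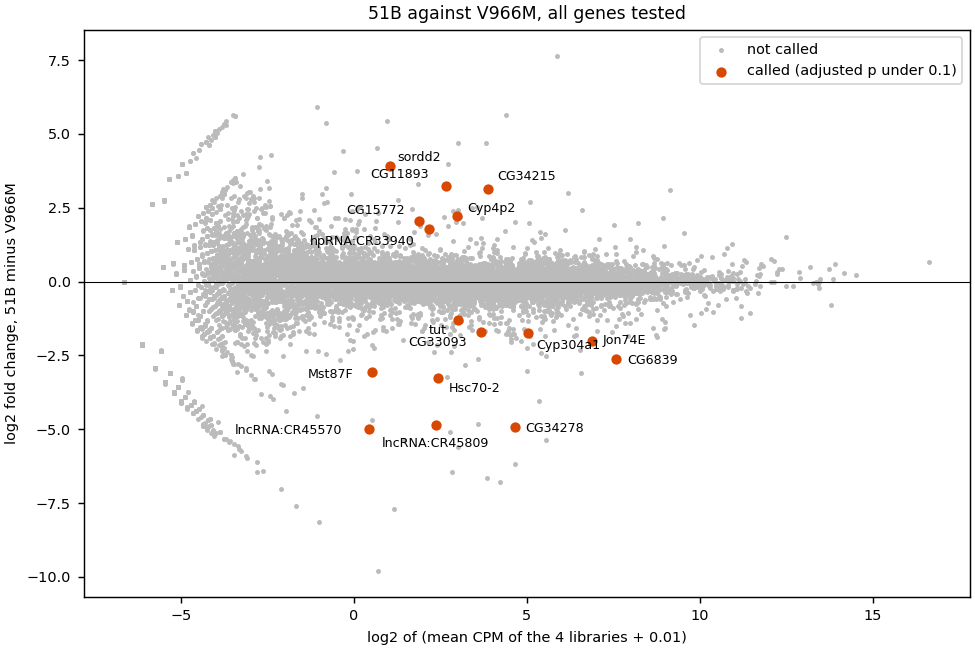
Log2 fold change of 51B over V966M (vertical axis) against the mean level of the 4 libraries (horizontal axis, log2 CPM) for the 13551 genes tested, with the 16 genes at an adjusted p under 0.1 in orange. They lie between -4.99 and 3.92 and do not include the genes with the most extreme fold changes.

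The calls rested on both replicates of both strains. When 51B replicate 3, 51B replicate 4 or V966M replicate 4 was left out, edgeR called 0 genes (555, 498 and 493 at an unadjusted p under 0.05), whereas DESeq2 on the same libraries called 49, 54 and 54, with all 16 genes among them each time. Without V966M replicate 3, edgeR called 6 genes, 3 of them among the 16 (Hsc70-2, lncRNA:CR45570 and CG33093), and DESeq2 called 102 including all 16. In each of these fits the 16 genes kept their direction and an unadjusted p under 0.05.

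**Figure D2:**
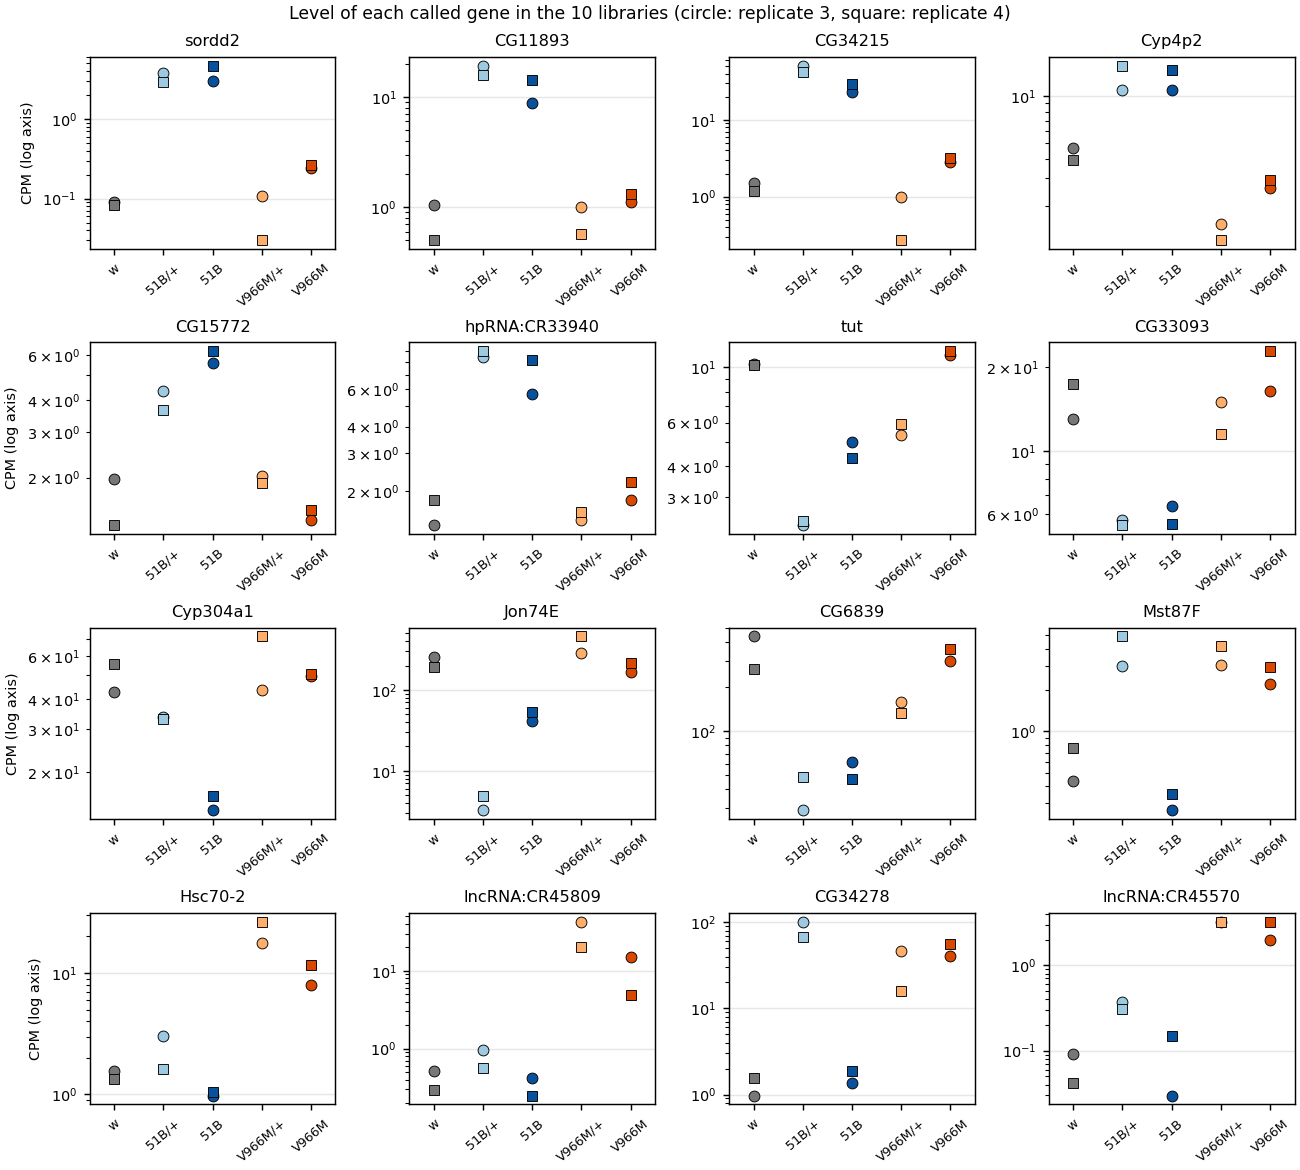
CPM (log axis, a separate range in each panel) of the 16 genes in the 10 libraries, by strain, with replicate 3 as a circle and replicate 4 as a square. The upper panels hold the genes higher in 51B, such as sordd2 at 2.99 and 4.67 CPM against 0.239 and 0.265 in V966M, and the lower panels hold genes lower in 51B, such as Hsc70-2 at 0.976 and 1.04 CPM against 7.95 and 11.5.

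The gene closest to the siRNA pathway among the 16 was hpRNA:CR33940 (FBgn0062928, 3L:19486745-19488439), a long hairpin RNA locus of the kind that is processed to endogenous siRNAs carried by AGO2. Its level was 5.71 and 8.20 CPM in 51B, 1.81 and 2.21 in V966M, and 1.39 and 1.81 in w. Both 51B libraries were thus above every V966M and w library, by 1.79 on the log2 scale against V966M (SE 0.26, adjusted p = 0.0562) and by 2.13 against w (adjusted p = 0.0191). The V966M libraries differed from w by 0.33, and the call against V966M was lost without V966M/+ replicate 4. Its exons share 417 bp with CG32212, and the counting ignored strand, so that reads in this stretch cannot be assigned to one of them with certainty. CG32212 was at a mean of 0.465 CPM in 51B and 0.314 in V966M. The other hairpin loci in the table, looked up after this result was seen, were also above 0 in 51B against V966M, and neither passed. hpRNA:CR32205 had mean levels of 2.95 CPM in 51B and 1.06 in V966M (log2 fold change 1.46, adjusted p = 0.326). hpRNA:CR32207, which lies 8025 bp from hpRNA:CR33940, had 1.24 and 0.825 CPM (0.62, adjusted p = 0.905). In 51B/+ against V966M/+ they did not share a sign, with edgeR changes of 0.53 for hpRNA:CR32205 (adjusted p = 0.346) and -0.59 for hpRNA:CR32207 (adjusted p = 0.502). Loci of this kind carry inverted repeats and resemble each other, so their reads may be divided or lost. None of the 16 small RNA pathway genes tested passed, with a median of 0.14, and AGO2 was the sole member at an unadjusted p under 0.05.

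Cyp4p2 and Cyp304a1, of the cytochrome P450 family, and CG11893, of the EcKL family, were among the 16 genes and changed in different directions. Cytochrome P450 enzymes are monooxygenases that act on hormones, fatty acids and foreign compounds. Cyp4p2 (FBgn0033395, 2R:9237512-9239831) stood at 10.9 and 14.8 CPM in 51B, 2.60 and 2.92 in V966M and 4.69 and 3.92 in w. It was 4.67-fold higher in 51B than in V966M (log2 fold change 2.22, SE 0.26, adjusted p = 0.0324), and it was also higher than in w (1.57, adjusted p = 0.0476). Cyp304a1 (FBgn0038095, 3R:12963791-12965923) moved the other way, with 14.0 and 16.1 CPM in 51B, 49.4 and 50.4 in V966M, and 42.7 and 55.3 in w. Here the 51B libraries lay below the other strains, by -1.73 against V966M (SE 0.25, adjusted p = 0.0562) and by -1.71 against w (adjusted p = 0.0295). The list of P450 genes, with 82 tested, had a median of -0.11. At an unadjusted p under 0.05, 6 lay above 0 and 4 below it. The list also held the cyclophilin genes Cyp1 and Cyp40, which are not P450 genes and did not reach that p. Cyp1 averaged 918 CPM in 51B and 951 in V966M. Cyp4d1, the P450 gene with the highest CPM in the compared libraries, averaged 404 CPM in 51B and 494 in V966M. CG11893 (FBgn0039316, 3R:25289889-25291366) belongs to the EcKL family, predicted kinases related to enzymes that phosphorylate ecdysteroid hormones. Its level was 8.79 and 14.2 CPM in 51B, 1.11 and 1.33 in V966M, and 1.04 and 0.506 in w. The 51B libraries were 9.49-fold above V966M (3.25 on the log2 scale, SE 0.38, adjusted p = 0.0324) and above w by 3.80 (adjusted p = 0.0113). It was the sole call among 46 EcKL genes, of which 1 other lay above 0 and 5 below it at an unadjusted p under 0.05, and the family median was -0.11. Glutathione and UDP-glycosyl transferases, a detoxification group of 68 genes, gave 0 calls in edgeR and a median of -0.08. At an unadjusted p under 0.05, 5 of them lay above and 6 below 0.

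Jon74E and CG6839, which encode a digestive protease and a predicted nuclease, were lower in 51B than in V966M and w. Jon74E (FBgn0023197, 3L:17548077-17549127) encodes a serine protease of the digestive tract. It stood at 41.5 and 53.1 CPM in 51B, 168 and 212 in V966M, and 255 and 193 in w, so that 51B was lower than V966M by -2.01 (SE 0.31, adjusted p = 0.0933) and lower than w by -2.24 (adjusted p = 0.0277). It lost its call against V966M without either w library, with which the spread is shared. Of the 27 gut serine protease genes tested, Jon74E was the one call, 10 lay below 0 and 0 above it at an unadjusted p under 0.05, and the median was -1.06. Together these 27 genes summed to 6618 and 12743 CPM in 51B and to 12893 and 22675 CPM in V966M. The higher 51B library thus lay just below the lower V966M library. In both strains replicate 4 was the higher, and the replicates differed about as much as the strains did. Lysozyme genes, also expressed in the gut, had a median of -1.0 over 7 genes, with 0 calls in edgeR and 0 genes at an unadjusted p under 0.05. Whether fewer gut cells or less RNA per cell lay behind such values cannot be told apart in whole larvae. CG6839 (FBgn0036831, 3L:18917581-18919259) encodes a predicted nuclease of the DNA/RNA non-specific kind. It had 61.2 and 46.8 CPM in 51B, 299.9 and 362 in V966M, and 440.04 and 265 in w. The 51B level was 6.12-fold below V966M (-2.61, SE 0.34, adjusted p = 0.0392) and lower than w by -2.71 (adjusted p = 0.0205), while V966M and w differed by -0.09. CG3819, which starts 1171 bp beyond CG6839, averaged 20.1 CPM in 51B and 3.55 in V966M (2.54, adjusted p = 0.887).

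Hsc70-2 was the chaperone among the 16 genes and stood apart in V966M rather than in 51B. Hsc70-2 (FBgn0001217, 3R:13044759-13047388) is a member of the Hsp70 family, which folds and refolds proteins. Its level was 0.976 and 1.04 CPM in 51B, 7.95 and 11.5 in V966M, and 1.57 and 1.35 in w. The V966M libraries were thus the high ones. The gene was 9.61-fold lower in 51B than in V966M (-3.26, SE 0.37, adjusted p = 0.0324), and V966M exceeded w by 2.72 (adjusted p = 0.0394). Of the 23 heat shock genes tested, Hsc70-2 was the sole one at an unadjusted p under 0.05, 14 lay above 0, and the median was 0.06. Hsc70-4, with the highest CPM of them, averaged 2301 CPM in 51B and 2276 in V966M.

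Lower in 51B were also tut and Mst87F, which have known roles in the male germline. The product of tut (tumorous testis, FBgn0052364, 3L:8209577-8210743) is an RNA-binding protein that acts with Bam and Bgcn to end the divisions of spermatogonia. Its level was 5.0 and 4.32 CPM in 51B, 11.3 and 11.6 in V966M, and 10.4 and 10.2 in w. The 51B libraries were below V966M by -1.29 (SE 0.17, adjusted p = 0.0428), the smallest of the 16 changes, and below w by -1.14 (adjusted p = 0.0343). Mst87F (FBgn0002862, 3R:13827151-13828008) encodes a sperm protein made late in spermatogenesis. It had 0.266 and 0.348 CPM in 51B, 2.22 and 2.92 in V966M, and 0.438 and 0.759 in w. The V966M libraries were the high ones here, and 51B was lower by -3.07 (SE 0.43, adjusted p = 0.0562). It was the one gene of the 16 that passed in neither comparison with w, at -0.93 for 51B (adjusted p = 0.525) and 2.15 for V966M (adjusted p = 0.235). Its exons share 41 bp with lncRNA:CR43300. In the list of testis genes, which holds Mst87F but not tut, Mst87F was the only call among 10 tested and the median was -0.34. It was -0.13 at the bound, with genes at 3 counts or fewer in both libraries of 1 strain raised to that floor. Genes that low in both strains were given a change of 0. At an unadjusted p under 0.05, 1 gene of the list lay above 0 and 1, Mst87F, below it. The summed level of the list was 5.95 and 5.07 CPM in 51B and 7.39 and 7.56 in V966M. Mst87F itself averaged 0.307 CPM in 51B and 2.57 in V966M within these sums, a difference larger than the gap between the strains. The summed level of the other members was thus not lower in 51B. The gene above 0 at an unadjusted p under 0.05 was fzo, which averaged 1.75 CPM in 51B and 0.422 in V966M (1.93, edgeR adjusted p = 0.887). No reads were found in the 4 libraries for 2 members. Among 11 genes that mark males, 9 were at 0 in all 4 libraries. The other 2 were tested without a call, 1 of them above 0. lncRNA:roX1, with the highest CPM of the list, averaged 24.9 CPM in 51B and 19.0 in V966M.

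Among the 6 genes that passed as higher in 51B, the largest fold change was that of sordd2 (FBgn0052581, X:15796908-15799162). It stood at 2.99 and 4.67 CPM in 51B, 0.239 and 0.265 in V966M, and 0.091 and 0.084 in w. The 51B libraries were 15.1-fold above V966M (3.92, SE 0.43, adjusted p = 0.0324) and above w by 5.37 (adjusted p = 0.0068). CR44383, a pseudogene that ends next to sordd2 on the opposite strand, had 29 and 20 counts in 51B against 1 and 0 in V966M, a ratio of 73.7 (95% exact interval 12.6 to 2969, counting error only), and did not pass (edgeR adjusted p = 0.142). The related neighbour sordd1, 880 bp from sordd2, averaged 55.2 CPM in 51B and 60.2 in V966M.

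A further 4 of the 16 genes are protein-coding genes known here by their numbers alone. CG34215 (FBgn0085244, 2R:6831296-6831793) had 23.3 and 29.2 CPM in 51B, 2.81 and 3.19 in V966M, and 1.5 and 1.18 in w. It was 8.80-fold higher in 51B than in V966M (3.14, SE 0.38, adjusted p = 0.0324) and higher than in w by 4.27 (adjusted p = 0.0077). CG15772 (FBgn0029799, X:5752249-5754041) had 5.56 and 6.21 CPM in 51B, 1.37 and 1.5 in V966M, and 1.97 and 1.31 in w, again with 51B as the high strain. Its changes were 2.04 against V966M (SE 0.26, adjusted p = 0.0392) and 1.82 against w (adjusted p = 0.0277). Its exons share 652 bp with those of lin-52, which averaged 6.76 CPM in 51B and 7.81 in V966M. CG33093 (FBgn0053093, 3R:22530694-22531922) was low in 51B, at 6.39 and 5.52 CPM, compared with 16.4 and 22.7 in V966M and 13.1 and 17.4 in w. The changes were -1.71 against V966M (SE 0.23, adjusted p = 0.0539) and -1.35 against w (adjusted p = 0.0548). CG34278 (FBgn0085307, 3R:17120465-17120808), a short gene inside the span of cher, changed most of these. It had 1.36 and 1.89 CPM in 51B, 41.0 and 55.9 in V966M, and 0.968 and 1.56 in w. The V966M libraries stood apart, and 51B was lower by -4.91 (SE 0.56, adjusted p = 0.0324) while V966M exceeded w by 5.30 (adjusted p = 0.0252). The surrounding gene cher averaged 1070 CPM in 51B and 1041 in V966M.

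Both long noncoding RNAs among the 16 genes were higher in V966M than in 51B and w, and higher still, on average, in V966M/+ (mean 3.23 CPM for lncRNA:CR45570 and 31.3 for lncRNA:CR45809). lncRNA:CR45570 (FBgn0267130, 3R:30404429-30404989) had 1 and 3 counts in 51B and 115 and 72 in V966M, a ratio of V966M to 51B of 31.1 after scaling to library size (95% exact interval 11.9 to 115, counting error only). Its fitted change was -4.99 (SE 0.59, adjusted p = 0.0324), it moved to -4.06 without 51B replicate 3 and to -6.28 without 51B replicate 4, and V966M exceeded w by 5.04 (adjusted p = 0.0250). lncRNA:CR45809 (FBgn0267459, 3L:961769-962471) lies inside the span of Glut1 on the same strand. It had 0.414 and 0.248 CPM in 51B, 15.2 and 4.82 in V966M, and 0.511 and 0.295 in w. The V966M replicates differed more from each other, relative to their level, than for any other of the 16 genes. The change was -4.86 (SE 0.72, adjusted p = 0.0947), which became -3.79 without V966M replicate 3, and the call was lost without 51B/+ replicate 4 or either w library. With hpRNA:CR33940 these RNAs made 3 noncoding genes of 16, where 7.72% of the genes tested were noncoding RNAs.

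Set against w, 15 of the 16 genes passed in 51B or in V966M and none in both, while Mst87F passed in neither. Against w, 0.738% of all genes passed for 51B and 0.125% for V966M. For 11 of the 16 genes 51B passed and V966M did not, namely all 6 genes higher in 51B together with CG6839, tut, CG33093, Cyp304a1 and Jon74E. For Hsc70-2, CG34278, lncRNA:CR45570 and lncRNA:CR45809 V966M passed and 51B did not. The same w libraries served both comparisons, and the difference between them is the comparison of 51B with V966M itself.

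The libraries labelled 51B/+ and V966M/+ carry the same alleles in 4 other libraries and were fitted together with the libraries above. In them 6.07% of all genes passed, 4.52% higher in 51B/+ and 1.56% lower. Of the 16 genes, 13 passed with the direction seen between 51B and V966M, and 14 had the same sign. All 6 genes higher in 51B passed, with changes of 1.03 for CG15772 (adjusted p = 0.0722), 2.51 for hpRNA:CR33940, 3.26 for Cyp4p2, 4.44 for CG11893, 5.44 for sordd2 and 6.15 for CG34215. CG34215, for example, stood at 50.9 and 42.5 CPM in 51B/+ and at 0.983 and 0.273 in V966M/+. Among the lower genes, tut (-1.25), CG33093 (-1.25), CG6839 (-1.91), Hsc70-2 (-3.21), lncRNA:CR45570 (-3.21), lncRNA:CR45809 (-5.29) and Jon74E (-6.53) passed as well. Without 51B/+ replicate 3, the adjusted p of CG15772, CG6839, tut and CG33093 rose above the threshold (0.338, 0.142, 0.105 and 0.167), and that of CG15772 did so also without either V966M/+ library or either 51B library. Cyp304a1 had the same sign and did not pass (-0.79, adjusted p = 0.125), with 33.8 and 33.2 CPM in 51B/+ and 43.6 and 72.0 in V966M/+. It passed without V966M/+ replicate 3 (-1.12, adjusted p = 0.0261). Mst87F was at 3.00 and 4.90 CPM in 51B/+ and 3.04 and 4.15 in V966M/+, with no difference between them beyond the replicates (0.13, adjusted p = 0.873).

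CG34278 and Jon74E were the 2 of the 16 genes for which the difference between the comparisons passed, among 12 of all genes (0.0886%). Differences that did not pass included those of Mst87F (-3.20) and CG34215 (-3.01), with an edgeR adjusted p of 0.172 for each. CG34278 stood at 102 and 66.5 CPM in 51B/+ and 46.0 and 16.1 in V966M/+, so that both were high and the 51B libraries and w were the low ones. Its changes were -4.91 for 51B against V966M and 1.43 for 51B/+ against V966M/+ (adjusted p = 0.149), a difference of -6.35 (SE 0.72, adjusted p = 0.0220). Without V966M/+ replicate 3, the second of these changes was 2.36 and passed (adjusted p = 0.0155). Jon74E fell to 3.24 and 4.86 CPM in 51B/+ against 285 and 458 in V966M/+, and its difference between the comparisons was 4.52 (SE 0.45, adjusted p = 0.0075). The AGO2 mRNA itself differed in the same way, by 5.07 (adjusted p = 0.0037).

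**Figure D3:**
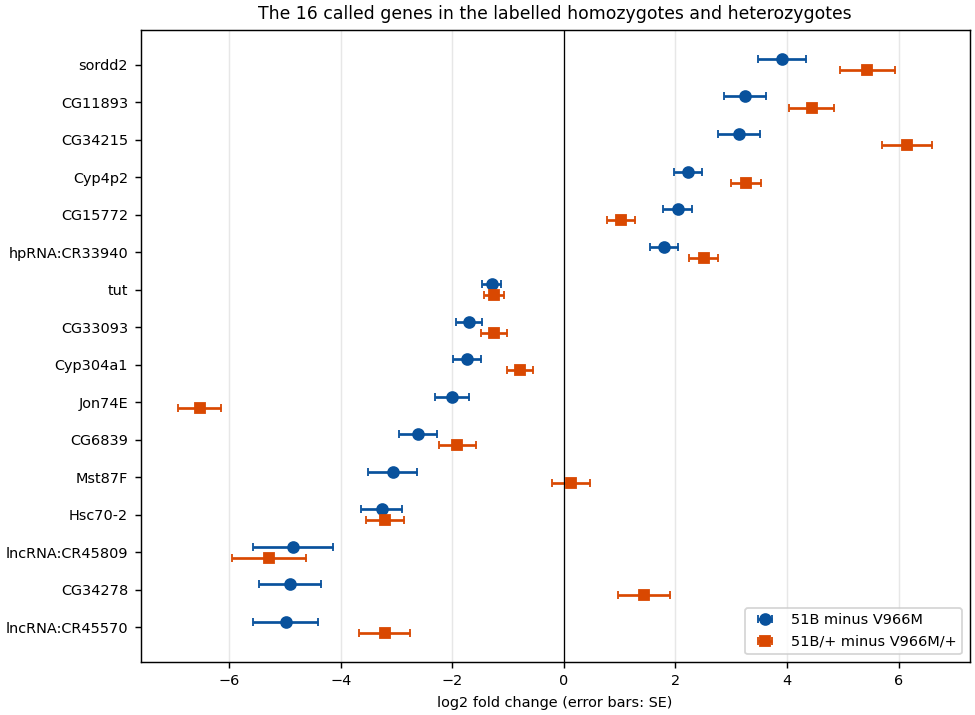
Log2 fold change with its SE for each of the 16 genes in 51B against V966M (blue circles) and in 51B/+ against V966M/+ (orange squares). The points share a sign for 14 genes, and CG34278 (-4.91 and 1.43) and Jon74E (-2.01 and -6.53) lie farthest apart among genes whose difference passed.

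No gene next to the 16 passed the test. Among 96 neighbours, the 3 nearest genes tested on each side, 0 passed in edgeR. An unadjusted p under 0.05 was reached by 7 of these 96, and by 747 of all 13551 genes (5.51%). The sign of the adjoining gene was shared by 58 of the 96. That count was not compared with other genes, of which 46.1% lay above 0, and no local effect is read from it. Related genes at the same place did not pass. Cyp4p1, 210 bp from Cyp4p2, averaged 10.9 CPM in 51B and 18.1 in V966M (-0.73, adjusted p = 0.895), and Cyp4p3 averaged 11.2 and 11.6 CPM. CG13658, CG31098 and CG31102, which flank CG11893, had changes of -0.65, 0.15 and -0.52, and each had an adjusted p above the threshold. CG14384, which lies next to Cyp304a1, averaged 0.040 CPM in 51B and 0.326 in V966M (-3.13, adjusted p = 0.825). By chromosome, 2 of the 16 genes lay on X, 0 on 2L, 2 on 2R, 5 on 3L and 7 on 3R. Chromosome 3, which also carries AGO2, thus held 75.0% of them and 44.1% of the genes tested.

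**Figure D4:**
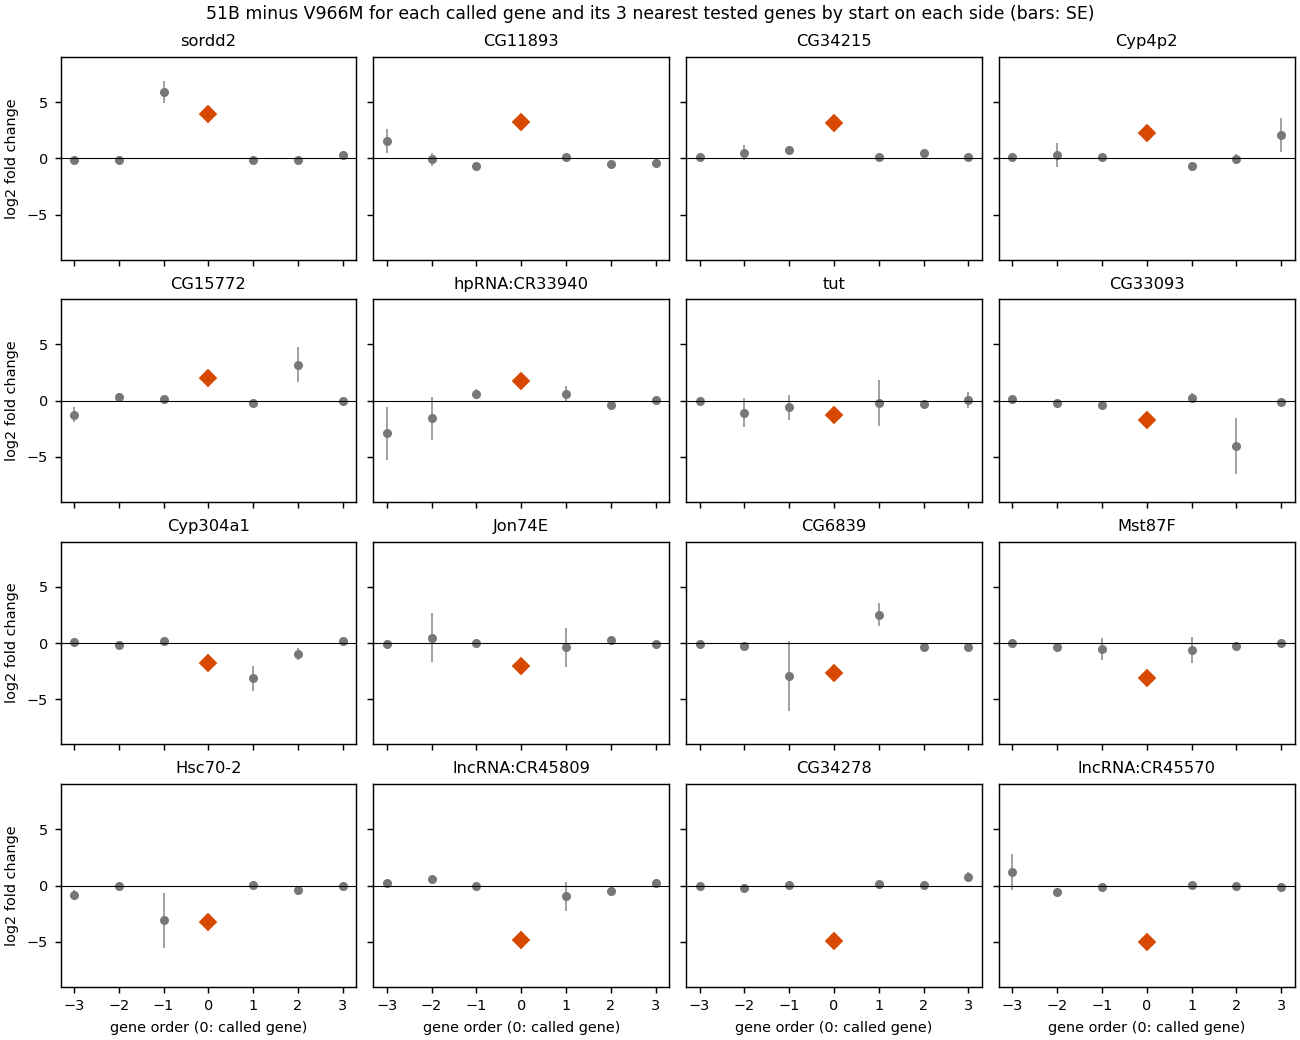
Log2 fold change of 51B over V966M for each of the 16 genes (orange diamond, position 0) and for the 3 nearest genes tested on either side (grey, with SE), in gene order. Most neighbours lie near 0, and 0 of the 96 passed, including CR44383 (5.91) beside sordd2.

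The 10 genes that came closest to the threshold without passing had adjusted p from 0.110 to 0.190. The first was white (w), whose product is a transporter of eye pigment precursors and which serves as a strain marker. It stood at 13.3 and 40.7 CPM in 51B, 0.633 and 1.59 in V966M, and 0.073 and 0 in w (4.71 against V966M, adjusted p = 0.110), and at 28.1 and 44.4 CPM in 51B/+. Higher in 51B were also CR44383, the P450 gene Cyp4e2 (76.0 and 93.8 against 41.5 and 39.9 CPM), NT5E-2 of the nucleotidase family (75.8 and 74.8 against 34.7 and 41.6 CPM), the methuselah-like receptor gene mthl6 (18.8 and 14.4 against 6.79 and 6.59 CPM), and the cilium and microtubule genes Oseg5 and TTLL6B. Oseg5, an intraflagellar transport gene, had 0.947 and 0.944 CPM in 51B and 0.154 and 0.133 in V966M. TTLL6B, of the tubulin tyrosine ligase-like family, had 9.20 and 10.6 CPM in 51B and 2.0 and 2.43 in V966M. Lower in 51B were CG6403 (42.2 and 35.5 against 86.9 and 129 CPM), CG13461 (4.35 and 2.24 against 12.5 and 28.9 CPM) and CG17230 (4.26 and 4.57 against 8.83 and 8.32 CPM). For each of the 10 genes the 51B and V966M libraries did not overlap, which was also true, as given above, of 15.5% (51B higher) and 18.4% (51B lower) of all genes tested.

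The remaining gene lists gave 0 calls in edgeR, and are given by their counts beside an all-gene median of -0.03. Genes of the mitochondrial genome had a median of 0.89 over 28 tested (0.83 at the bound described for the testis genes), with 25 above 0. At an unadjusted p under 0.05, 7 lay above 0 and 0 below it. The higher mitochondrial share of the 51B libraries is made up of the counts of these same genes and is not a separate observation. In that share, replicate 4 of 51B (11.6%) equalled replicate 3 of V966M (11.6%). Cuticle protein genes had a median of 0.29 over 105 (0.12 at the bound), with 11 above and 1 below 0 at that p. Antimicrobial and Turandot genes of the humoral response had -0.11 over 37 (0.00 at the bound), with 2 above and 1 below. The list of salivary glue genes, which also held the Eig71E prepupal genes, had 0.16 over 18, with 2 above and 0 below. Markers of other tissues had 0 genes at an unadjusted p under 0.05 and medians of 0.17 for 6 fat body storage genes, 0.07 for 8 muscle genes, 0.33 for 4 neuronal genes, 0.62 for 4 hemocyte genes and 0.31 for 4 female germline genes. All 4 hemocyte genes lay above 0, at a summed level of 427 and 411 CPM in 51B and 324 and 261 in V966M. The part of these tissue shifts in the 16 genes was not tested.

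**Figure D5:**
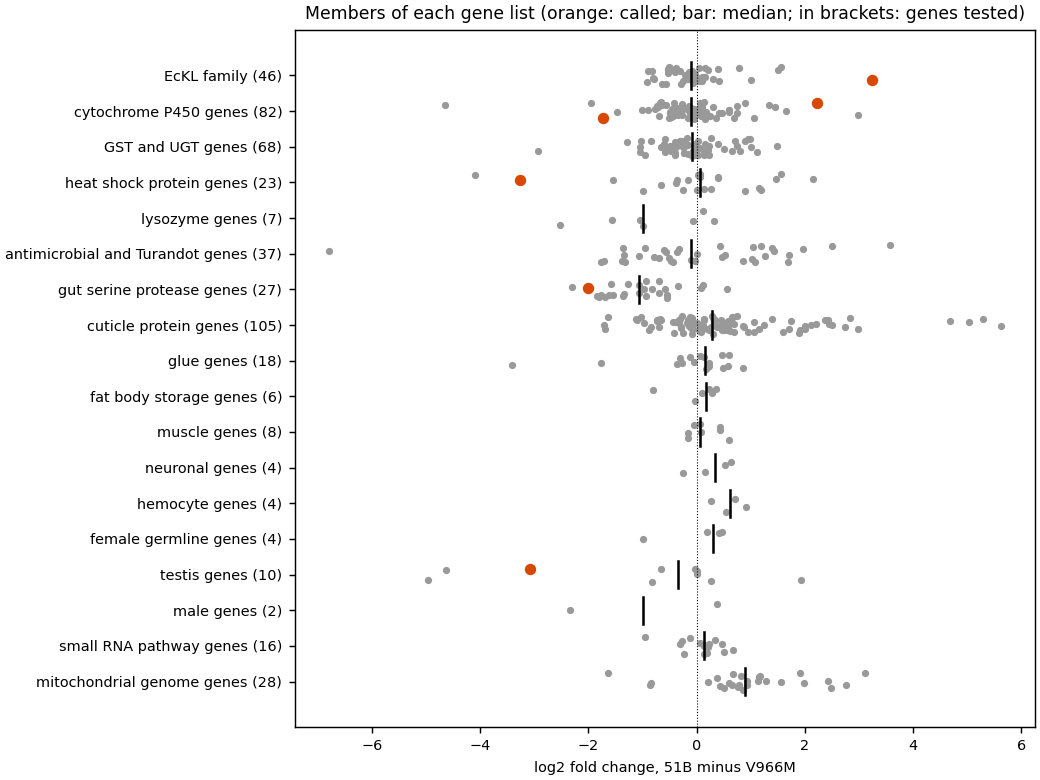
Log2 fold change of 51B over V966M for every tested member of each gene list other than the hairpin RNA list, which is not drawn (points, with the number tested in brackets), the median of each list as a bar, and the genes at an adjusted p under 0.1 in orange. The 6 orange points lie in 5 of the lists drawn, of which the gut serine proteases have a median of -1.06 and the EcKL and P450 genes one of -0.11.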

How the data were processed

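Polyadenylated RNA from whole female larvae was sequenced as single-end reads in 10 libraries of 5 strains. Following the study's methods, the authors trimmed reads with cutadapt 1.10, aligned them to the main chromosomes of dm6 with HISAT2 2.0.4 and counted reads over the exons of FlyBase genes with featureCounts 1.5.0-p3, ignoring strand. The deposited values are raw counts per gene for each library, neither normalized nor pooled. Reads shared by overlapping genes or near-identical copies therefore have no certain origin. Samples were grouped by the strain given in their labels. Of 17402 genes in the table, 1671 had no read, and 17210 were matched to coordinates.

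A gene entered the test if its counts in the 10 libraries added up to 10 or more, which left 13551 genes. In R 4.3.3, edgeR 4.0.16 (quasi-likelihood, TMM normalization, robust dispersion) fitted strain as the only term to all 10 libraries, so that the 5 strains share 1 estimate of spread. CPM values are counts scaled by the TMM library sizes. Adjusted p-values are those of Benjamini and Hochberg over all genes tested, and p-values are two-sided and measure the spread between the 2 biological replicates of each strain. Log2 fold changes are given with SE, and 51B minus V966M is positive where 51B is higher. Exact intervals for low counts (95%) cover counting error only.

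The text names AGO2 and white as checks on the labels, every gene past the threshold, the 10 genes with the next smallest p, and members of gene lists that passed, adjoin such a gene or have the highest level of their list. Cyp4d1, Cyp40, fzo and the other hairpin loci are named besides, to describe their lists. The members and lists were chosen with earlier results of these data known. The test of the difference between the allele comparisons, the hairpin RNA list, the counts of neighbours and the DESeq2 fits with 1 library left out were added after the data were seen. Alternatives were DESeq2 1.42.0, edgeR's exact test, RLE scaling, other count filters, a stricter threshold, a fold minimum, the 2 strains alone, a replicate block and each library left out. The test was tried on simulated data made from these libraries. In 51B against V966M, 92.0% of 200 genes changed by a factor of 4 were recovered among 13220 tested. Of 200 changed by a factor of 2, 17.5% were recovered among 13256. Calls of unchanged genes numbered 15 beside 184 recovered at a factor of 4, and 6 beside 35 at a factor of 2. Gene symbols and coordinates came from the Ensembl annotation of the same assembly. No sequence is printed.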

Additional observations from a re-analysis of the deposited data

Results flagged for a closer look

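A test of the difference between the 2 allele comparisons, 51B against V966M minus 51B/+ against V966M/+, singled out 4 of the genes named above, all adjusted p-values from edgeR over the genes tested. CG34278 differed by -6.35 (SE 0.72, adjusted p = 0.0220), being lower in both 51B libraries than in both V966M libraries (-4.91) but with the opposite sign in the libraries labelled as heterozygous (1.43). Jon74E differed by 4.52 (SE 0.45, adjusted p = 0.0075), from a change of -2.01 in the first comparison and -6.53 in the second. CG13461, which did not pass in 51B against V966M, differed by 4.98 (adjusted p = 0.0728), with changes of -2.62 and -7.60. AGO2 differed by 5.07 (adjusted p = 0.0037), with changes of -0.96 and -6.03.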

How the results depend on the processing

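The 16 genes (6 higher and 10 lower in 51B) stayed called under RLE scaling, which moved the median of all genes by 0.02, under a minimum log2 fold change of 1 and with edgeR's filterByExpr. Without a count filter 18 genes were called, 15 of the 16 among them, without lncRNA:CR45809. DESeq2 called 100 genes (52 higher, 48 lower) and the exact test on the 2 strains 263 (109 and 154), both including all 16. The quasi-likelihood fit of the 2 strains alone called 43 (19 and 24), including 15 of the 16, without tut. A threshold of 0.05 left 10 (5 and 5), without CG33093, Mst87F, hpRNA:CR33940, Cyp304a1, Jon74E and lncRNA:CR45809. A fit with the replicate block called 34 (17 and 17), including 15 of the 16, without CG34278 (adjusted p = 0.116). The labels do not say that a number marks a shared batch, the correlation of same-numbered deviations was 0.31 between 51B and V966M and 0.004 to 0.617 over the strain pairs, and the numbers were not taken as pairs. Leaving out single libraries gave 0 to 23 calls (0 to 9 higher, 0 to 15 lower). Of the 16 genes, 13 passed in 51B/+ against V966M/+, and 9 to 14 did under the alternatives. In that comparison the change of Mst87F ranged from -0.28 to 0.45 with single libraries left out, crossing 0. The causes of these shifts were not tested. In 18 settings, the 16 genes kept their sign in 51B against V966M throughout.

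In simulation with 2 libraries per strain, 17.5% of genes above 1 CPM changed by a factor of 2 in 51B against V966M were recovered, so smaller changes could pass unseen. Below 1 CPM, where 28.7% of the genes tested lay, 0 of the 16 genes had their mean, and an absent call there does not show that a gene was unchanged. The disagreement between AGO2 levels and labels touches each direction given above.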
